A study of Mus musculus with 48 samples.

Results

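Elastic fibre and microfibril genes were followed hour by hour in NIH3T3 cells, a line of mouse embryo fibroblasts, after a forskolin shock. The members were 10 genes fixed by symbol (Eln, Fbn1, Fbn2, Fbln1, Fbln2, Fbln5, Mfap2, Mfap4, Mfap5 and Lox), and every probe set carrying 1 of these symbols was used. They were chosen with earlier results of these data known. Of the 10 members, 9 had a probe set, out of 18193 gene symbols with a probe set in the series. Fbn1 was not analysed here. The 9 members had 19 probe sets, and the brightest probe set of each gene led its description.

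Elastic fibres are built on a scaffold of microfibrils, which are bundles of fibrillin (Fbn1, Fbn2) decorated by microfibril-associated glycoproteins (Mfap2, Mfap5). Elastin (Eln) is deposited on this scaffold with the help of fibulins, in particular fibulin-5 (Fbln5), and is made insoluble by lysyl oxidase (Lox), which oxidises lysines so that neighbouring chains crosslink. Fibroblasts and smooth muscle cells are the usual producers, and microfibrils also hold latent TGF-β in the matrix.

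Cells were grown to confluence in serum-containing medium and all dishes received forskolin, an activator of adenylyl cyclase used to synchronise clocks. RNA was taken once an hour, giving 24 late arrays (hours 44 to 67) and 24 early arrays (hours 20 to 43), with 1 Affymetrix mouse genome array an hour. Untreated dishes were not analysed here, so time after forskolin, time at confluence and age of the medium cannot be told apart. Each hour stands for 1 array, so the errors below measure the scatter of single arrays around a fitted curve and not the spread between cultures taken at the same hour.

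The array values were given as intensities and were used on the log2 scale, and a level is only compared with the same probe set at other hours. Array medians lay between 6.58 and 6.71 on the log2 scale. The β-actin 3′ minus 5′ difference, which grows as RNA breaks down, was over 1.4 log2 on 10 arrays (median of all arrays, 1.13), and on hours 52 to 55 the spiked BioB control was 0.90 log2 above the other arrays. All 8 fibroblast markers lay above the median of all probe sets (6.67), whereas 0 of 4 endothelial and 0 of 4 epithelial markers did. The mean level over the fibroblast markers was 18.07 to 18.22 in late and 18.08 to 18.20 in early arrays, and that over the endothelial markers 5.44 to 5.84 in late and 5.43 to 5.49 in early arrays. The 24 h clock was measurable: the clock repressor Nr1d2 had an amplitude of 0.82 ± 0.03 log2 (SE, 48 arrays, limma adjusted p = 2.23e-24).

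In the 2 days sampled the elastic fibre genes separated into 3 kinds. Mfap4, Mfap5 and, by a small amount, Lox rose. Fbn2 fell steeply, and Fbln5 and Fbln2 fell slightly. Eln, Fbln1 and Mfap2 had mean levels of 5.86, 5.66 and 5.43, under the median of all probe sets (6.67), and of these Eln alone passed the trend test. Tests were made in limma with a straight line over the hours and a 24 h cosine, with Benjamini-Hochberg adjustment over 45037 probe sets, and slopes are in log2 per 24 h.

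Of the 9 leading probe sets, 4 rose (Eln, Mfap4, Mfap5, Lox), where 14.2% of all probe sets rose. Another 3 fell (Fbn2, Fbln2, Fbln5), where 16.2% of all probe sets fell. The members had a median slope of 0.07, that of the dim Fbln1, against -0.003 over all probe sets, and the 6 members above the median of all probe sets had a median slope of -0.06. Over all 9 members the median absolute slope was 0.23, that of the dim Eln, against 0.03 over all probe sets. Over the probe sets above the median, where 6 of the 9 members lie, it was 0.13. With hours 44 to 67 set against hours 20 to 43, the same 4 genes were higher in the late window, where 12.6% of all probe sets were higher. The same 3 were lower, where 13.8% of all were lower. The members that passed were 7 in both tests.

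**Figure D1:**
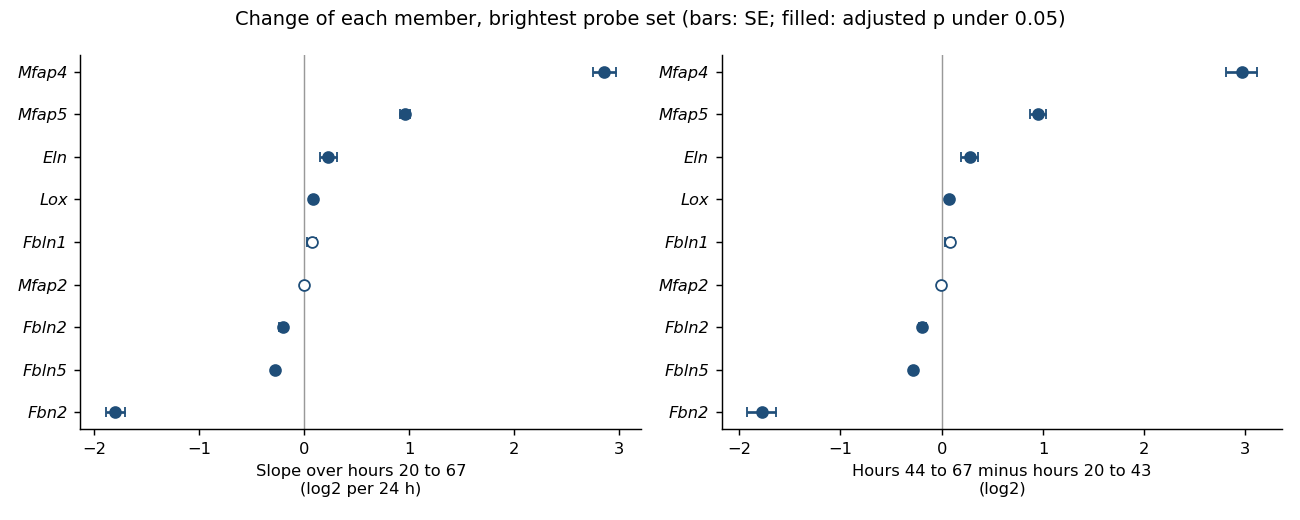
Change of each of the 9 members on its brightest probe set, as the slope over hours 20 to 67 in log2 per 24 h (left) and as late minus early window in log2 (right), with bars for the SE and filled points for an adjusted p under 0.05. Mfap4 at 2.86 and Fbn2 at -1.80 per 24 h lie at the ends of the slopes, and the order of Mfap4, Mfap5, Fbln2, Fbln5 and Fbn2 is the same in both panels.

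Mfap4 encodes a fibrinogen-domain glycoprotein that binds tropoelastin and microfibrils. It lies at chr11:61485431-61488708 (GRCm38.p6) and had 1 probe set. Its log2 level ran over 10.54, 12.18 and 13.51 (lowest, median, highest) in the 24 late arrays and over 8.94, 8.96 and 10.51 in the 24 early arrays. All 24 late arrays were above the highest early array. The late mean was 12.20 ± 0.82 and the early mean 9.24 ± 0.50 (SD, n = 24 each), a 7.79-fold ratio, and the difference of 2.96 ± 0.15 log2 (SE) passed the test (limma adjusted p = 2.25e-19).

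The measured level of Mfap4 did not rise over the whole course. On the 16 arrays of hours 20 to 35 its level stayed within 8.94 to 9.02 (SD 0.02), and from hour 36 on all 32 arrays were above that range, the lowest at 9.205. Means over 6 hours were 8.96, 8.95, 9.04, 10.01, 11.10, 12.04, 12.54 and 13.13 in order of time, so that the last 6 hours were 18 times the first 6. Whether the flat level is a measured level or the background of this probe set cannot be told apart, and the folds are those of the values as given. The slope was 2.86 ± 0.11 (adjusted p = 6.26e-26) over all hours, and 3.18 ± 0.15 (adjusted p = 1.52e-15) over the 32 arrays from hour 36, a restriction chosen after seeing the data.

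Mfap4 was the 1 member past the test of a change of slope between windows, where 3% of all probe sets had a higher late slope and 4.43% a lower one. Its slope was 2.71 ± 0.29 in the late window and 1.37 ± 0.29 in the early window, a difference of 1.34 ± 0.31 (limma adjusted p = 0.0032). The early slope was fitted over the flat hours 20 to 35, whose level may be background. The part of this in the difference was not tested. With 6 h windows as a random block this call was lost and 0 members passed. The residuals of neighbouring hours correlated (r = 0.53 at 1 h, 48 arrays), so the p-values of this gene are too small. The limit is not confined to Mfap4, since this r was 0.30 in Fbn2 and 0.225 in Fbln5, though -0.207 in Lox. With the 6 h block the trend had larger adjusted p-values (limma). They were 1.31e-19 for Mfap4, 5.37e-19 for Fbln5, 2.8e-14 for Fbn2, 1.08e-13 for Mfap5, 0.000635 for Fbln2 and 0.00711 for Lox.

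**Figure D2:**
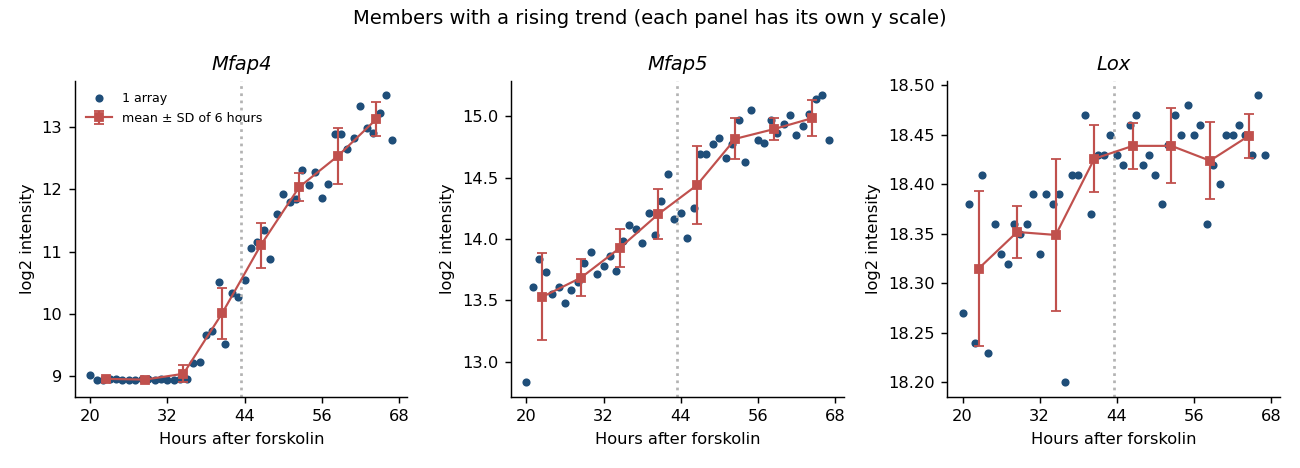
Log2 intensity of Mfap4, Mfap5 and Lox against hours after forskolin, with a point for each array and squares for the mean ± SD of 6 arrays, the dotted line parting the early and late windows and each panel having its own y scale. Mfap4 is flat through hour 35 and reaches 13.13 in the last 6 hours, Mfap5 climbs throughout, and Lox moves by 0.13 log2 between the first and last 6 hours.

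Mfap5 encodes microfibril-associated glycoprotein 2, which binds fibrillin and Notch ligands, and lies at chr6:122513584-122529290. Its leading probe set read 14.01, 14.82 and 15.17 (lowest, median, highest) in late arrays and 12.83, 13.82 and 14.53 in early arrays. The windows overlapped, with 21 of 24 late arrays above the highest early one, and each of the 24 late arrays was above the array taken 24 h earlier. The slope was 0.96 ± 0.05 (adjusted p = 4.34e-21) and the late mean was 1.93 times the early mean, 14.78 ± 0.28 against 13.83 ± 0.34 (SD). In 6 h means the level was 13.53, 13.68, 13.93, 14.20, 14.44, 14.82, 14.90 and 14.99. The second probe set rose with a slope of 0.82 ± 0.04 (adjusted p = 4.91e-21), and the probe sets had r = 0.92 over the 48 arrays. Around its trend the leading probe set had residuals with r = -0.43 to the β-actin 3′ minus 5′ difference. Without the arrays of high difference its slope was 0.98 (adjusted p = 2.42e-20).

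Lox passed the test with a change of under 0.1 log2 per 24 h. Its leading probe set read 18.36, 18.44 and 18.49 (lowest, median, highest) in late arrays and 18.20, 18.38 and 18.47 in early arrays. The windows overlapped, and 20 of 24 late arrays were above the array taken 24 h earlier. The slope was 0.08 ± 0.01 (adjusted p = 4.81e-06) and the late mean 1.05 times the early mean. The residuals of Lox around its trend had r = -0.55 with the β-actin 3′ minus 5′ difference over the 48 arrays, and without the 10 arrays of high difference the slope was 0.05 (adjusted p = 6.38e-05). A second probe set rose at 0.13 ± 0.02 (adjusted p = 4.77e-09), and the third, at a mean of 5.49, did not pass the test.

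Fbn2 encodes fibrillin-2, the fibrillin most tied to development, and lies on chromosome 18. Its leading probe set read 6.72, 8.27 and 9.40 (lowest, median, highest) in late arrays and 9.34, 10.18 and 11.05 in early arrays. Of the 24 late arrays 22 were below the lowest early array, and 0 of 24 were above the array taken 24 h earlier. The slope was -1.80 ± 0.09 (adjusted p = 3.1e-21), and the late mean of 8.35 ± 0.76 was 0.291 times the early mean of 10.13 ± 0.49 (SD, n = 24 each). Means over 6 hours were 10.67, 10.23, 10.15, 9.48, 9.21, 8.78, 7.91 and 7.52, so the level of the last 6 hours was 0.113 times that of the first 6.

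The late slope of Fbn2 was -2.41 ± 0.29 and the early slope -1.48 ± 0.29. Their difference of -0.93 ± 0.31 did not pass (adjusted p = 0.0589). The second probe set of Fbn2 lay at a mean of 5.61, near the floor of the values (5.12), and changed by -0.03 ± 0.01 per 24 h (adjusted p = 0.036). Residuals of Fbn2 had r = 0.39 with the β-actin difference, and the slope without the 10 arrays of high difference was -1.78 (adjusted p = 4.3e-16).

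**Figure D3:**
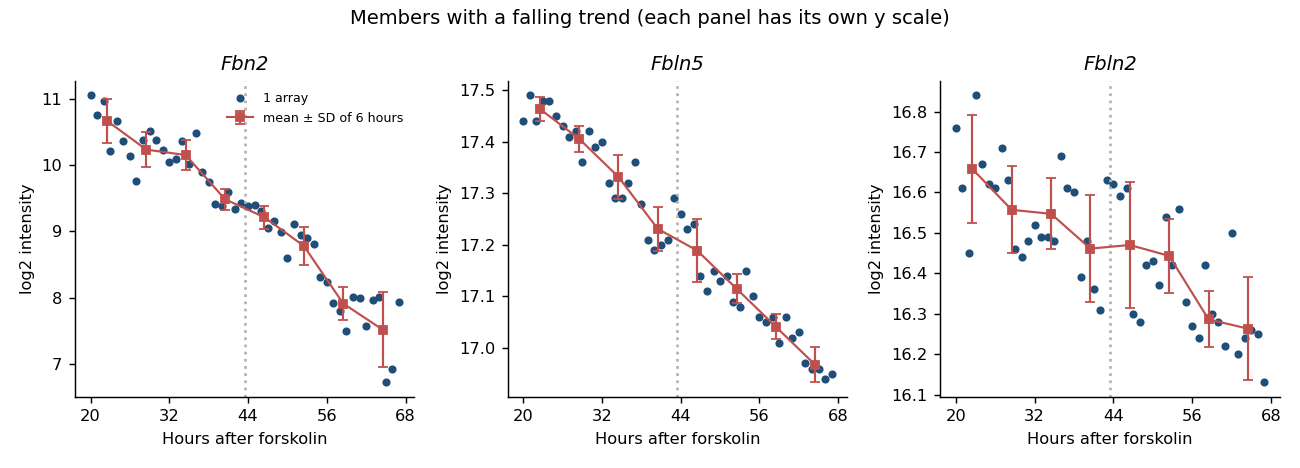
Log2 intensity of Fbn2, Fbln5 and Fbln2 against hours after forskolin, with a point for each array and squares for the mean ± SD of 6 arrays, each panel having its own y scale. The last 6 hours minus the first 6 come to -3.15 log2 in Fbn2, -0.50 in Fbln5 and -0.40 in Fbln2.

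Fbln5 encodes fibulin-5, which binds tropoelastin and tethers it to microfibrils and to integrins. Its leading probe set read 16.94, 17.07 and 17.26 (lowest, median, highest) in late arrays and 17.20, 17.38 and 17.49 in early arrays. The change was small but even: 21 of 24 late arrays were below the lowest early array, and 0 of 24 were above the array taken 24 h earlier. The slope was -0.28 ± 0.01 (adjusted p = 6.57e-28), with a residual SD of 0.03, and the late mean was 0.823 times the early mean. The late and early slopes were -0.30 ± 0.03 and -0.29 ± 0.03, and their difference was -0.003 ± 0.03 (adjusted p = 0.958).

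The second probe set of Fbln5, at a mean of 7.84, fell with a slope of -0.58 ± 0.10 (adjusted p = 2.75e-06), but with another course. Its slope was -0.15 ± 0.29 in the late window and -1.39 ± 0.29 in the early window, and the difference of 1.24 ± 0.31 passed the test (adjusted p = 0.0065). The 2 probe sets had r = 0.70 over the 48 arrays and 0.01 after their trends were removed.

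Fbln2, encoding fibulin-2 of basement membranes and elastic fibres, also fell, with more overlap between the windows. Its leading probe set read 16.13, 16.31 and 16.62 (lowest, median, highest) in late arrays and 16.31, 16.56 and 16.84 in early arrays. The windows overlapped, and 2 of 24 late arrays were above the array taken 24 h earlier. The slope was -0.21 ± 0.03 (adjusted p = 2.54e-07) and the late mean was 0.876 times the early mean. A second probe set, at a mean of 7.86, had the same slope over all hours, -0.21 ± 0.04 (adjusted p = 1.39e-05). Its slope was -0.02 ± 0.13 in the late window and -0.35 ± 0.13 in the early window. The difference of 0.32 ± 0.14 did not pass the test (limma adjusted p = 0.0961). The leading probe set had -0.39 ± 0.10 late and -0.29 ± 0.10 early. These probe sets had r = 0.55 over all arrays, and 0.07 after their trends were removed. Residuals of Fbln2 had r = 0.44 with the β-actin difference, and the slope without the arrays of high difference was -0.19 (adjusted p = 1.79e-05).

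Fbln5 and Fbln2 fell side by side and kept a residual correlation of 0.53 over the 48 arrays after their own trends were removed (0.81 before). Residual correlations of like size were found in other pairs (Eln and Fbln1 0.52, Eln and Fbln2 0.50, Mfap2 and Mfap5 -0.55). Fbln5 and Fbln2 were the members that fell and were in a table of start sites. For each, the window around a listed start site is shown, 250 bases before to 50 after it, from RefSeq on GRCm38.p6. The table of start sites held 5 of the 10 members. Capitals mark the letters TGACG (or CGTCA, its other strand), a half-site of the cyclic AMP response element. The windows lie at chr12:101819070-101819369 (minus strand) for Fbln5 and chr6:91212514-91212813 (plus strand) for Fbln2. The Fbln2 gene is annotated from chr6:91212460, before the first base of its window, so this window does not show the bases before the gene start.
Fbln5: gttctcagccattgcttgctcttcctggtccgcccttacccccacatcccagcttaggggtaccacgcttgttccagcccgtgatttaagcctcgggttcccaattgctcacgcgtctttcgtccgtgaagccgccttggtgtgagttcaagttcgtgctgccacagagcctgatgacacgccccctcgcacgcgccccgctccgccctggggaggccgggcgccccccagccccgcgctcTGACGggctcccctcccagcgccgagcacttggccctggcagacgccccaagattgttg
Fbln2: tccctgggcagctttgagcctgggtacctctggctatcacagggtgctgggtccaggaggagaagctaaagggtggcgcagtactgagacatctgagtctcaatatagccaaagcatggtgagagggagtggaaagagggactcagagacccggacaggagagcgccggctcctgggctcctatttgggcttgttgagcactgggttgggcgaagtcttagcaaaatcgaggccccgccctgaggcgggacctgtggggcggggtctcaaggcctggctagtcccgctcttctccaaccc
The Fbln5 window held TGACG once on the gene's strand, from 9 to 5 bases before the start, and the Fbln2 window held no such match on either strand. Of 32851 windows of this length in the table, 20.8% held the half-site. The E-box CACGTG (7.15% of windows) and the AP-1 letters TGANTCA (7.81%) were in neither window on either strand. These are matches of letters and not measured sites.

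Eln, the elastin gene at chr5:134702595-134747368, was dim. Its leading probe set read 5.74, 5.81 and 7.24 (lowest, median, highest) in late arrays and 5.51, 5.75 and 6.10 in early arrays. The windows overlapped, and 5 late arrays were above the highest early one, among them hour 45 at 6.95 and hour 54 at 7.24. The slope was 0.23 ± 0.08 (adjusted p = 0.0309). This call was lost once hours 52 to 55 had their own term (0.18, adjusted p = 0.137), without hours 20 to 25 (0.22, adjusted p = 0.135) and with 6 h windows as a random block (0.16, adjusted p = 0.424). Around its trend the leading probe set had residuals with r = 0.42 to the β-actin 3′ minus 5′ difference, which was 2.22 at hour 45. Without the arrays of high difference its slope was 0.28 (adjusted p = 0.0147). The second Eln probe set, at 5.43, had a slope of -0.001 ± 0.001.

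Fbln1, encoding fibulin-1, read 5.59, 5.61 and 6.49 (lowest, median, highest) in late arrays and 5.58, 5.60 and 5.89 in early arrays, with a slope of 0.07 ± 0.04 (adjusted p = 0.153). Mfap2, encoding the first microfibril-associated glycoprotein, stayed within 5.41 to 5.43 in late and 5.42 to 5.44 in early arrays (slope -0.003 ± 0.002, adjusted p = 0.107). Neither passed the trend or window test. Their other probe sets did not pass these tests, with slopes of -0.01 and 0.05 in Fbln1 and -0.001 in Mfap2. At this brightness, near the floor of the values (5.12), a change of the gene may not be seen, and very small shifts can still be called. Mfap2 passed the G-test given below (q = 0.00833) with a residual SD of 0.006.

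**Figure D4:**
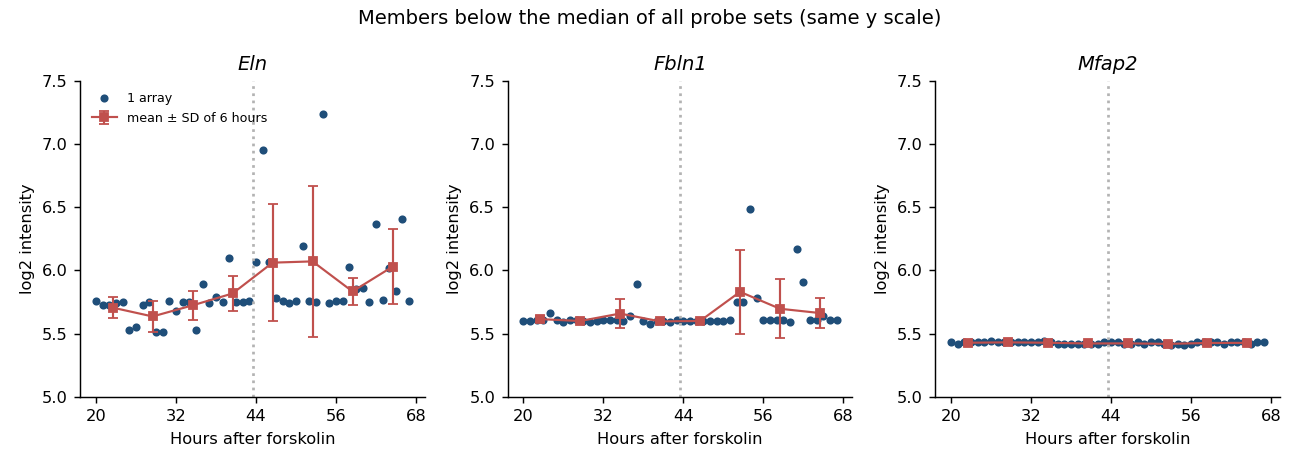
Log2 intensity of Eln, Fbln1 and Mfap2 against hours after forskolin on a shared y scale, with a point for each array and squares for the mean ± SD of 6 arrays. Single arrays of Eln (hour 54 at 7.24) and Fbln1 (hour 54 at 6.49) stand above a base near 5.7 and 5.6, whereas Mfap2 does not leave 5.41 to 5.44.

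The study asked which transcripts cycle in these cells. A 24 h cosine was called in 0.293% of all probe sets and in 0 of the 9 members, with 1 member (Mfap4) at an unadjusted p under 0.05. The fitted 24 h amplitude of Mfap4 was 0.33 ± 0.09 (adjusted p = 0.168), and that of Mfap5 0.09 ± 0.04 (adjusted p = 0.64). The fitted amplitudes of Fbn2, Fbln2, Fbln5 and Lox were 0.03, 0.02, 0.01 and 0.01 (limma, adjusted p from 0.956 to 0.96). A 12 h cosine was called in 0% of probe sets and 0 members, with 506 probe sets and 0 members at an unadjusted p under 0.05. An 8 h cosine was also called in 0% of probe sets and 0 members. Unlike at 12 h, 19540 of 45037 probe sets and 4 members had an unadjusted p under 0.05. The adjusted p-values of these members (limma) were 0.0546 in the dim Fbln1 and Mfap2, 0.096 in Fbln2 and 0.1045 in Fbn2. The 8 h result of Fbln1 and Mfap2 thus lay just over the threshold of 0.05. The source of the large unadjusted share at 8 h was not tested.

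Fisher's G-test, which asks whether 1 of 23 Fourier periods holds an undue share of the variance, called 52.2% of all probe sets and 7 members at a Storey q under 0.05 (Fbn2, Fbln2, Fbln5, Mfap2, Mfap4, Mfap5, Lox). All 7 members had their largest share at 48 h, the length of the course itself, from 0.273 of the variance in Fbln2 (q = 0.029) to 0.772 in Mfap4 (q = 5.95e-10). Mfap2 was called although its level varied by a residual SD of only 0.006. After a straight line was removed, 1.84% of all probe sets and 1 member, Mfap4, were called, still at 48 h (q = 0.0196).

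The correlations of some strongly trending members over the 48 arrays shrank once the trends were removed. Mfap4 and Mfap5 had r = 0.92, and 0.03 once a line and a 24 h cosine were removed. Fbn2 and Fbln5 had r = 0.94, and 0.06 after removal. Fbn2 and Mfap4 had r = -0.95, and -0.41 after removal. Among 10366 other genes, that with the course most like Mfap4 was Ogn, a small leucine-rich proteoglycan (r = 0.98). The closest to Mfap5 was Dhrs3, a retinaldehyde reductase (r = 0.98), to Fbn2 the mitotic topoisomerase Top2a (r = 0.96), and to Fbln5 the TGF-β-induced matrix protein Tgfbi (r = 0.98). For Fbln2 it was Galnt2 (r = 0.93) and for Lox Tmbim6 (r = 0.86). For the dim Eln, Fbln1 and Mfap2 it was Ahdc1 (r = 0.79), Rnf113a1 (r = 0.64) and Zfp141 (r = 0.84). All points share the same arrays and the same course of time.

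Other genes of the elastic fibre were counted from lists by role. The lists were chosen with earlier results of these data known, and each gene was led by its brightest probe set. The shares over all probe sets, many of them dim, are therefore given for scale and are no test of a list. Of 7 measured crosslinking genes 5 rose and 0 fell, with a median slope of 0.10, where 14.2% of all probe sets rose and 16.2% fell. The lysyl oxidase relatives Loxl3 and Loxl1 rose at 0.23 ± 0.05 (adjusted p = 0.00017) and 0.13 ± 0.04 (adjusted p = 0.0075). Bmp1, the protease that activates pro-lysyl oxidase, rose at 0.19 ± 0.05, and was the 1 listed gene with a called 24 h cosine (amplitude 0.18 ± 0.04, adjusted p = 0.0172). The copper transporter Atp7a and the procollagen protease enhancer Pcolce also rose, at 0.10 and 0.09.

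All 4 latent TGF-β binding proteins, relatives of the fibrillins that anchor latent TGF-β to microfibrils, fell, where 16.2% of all probe sets fell. Ltbp2 fell most, with a slope of -0.99 ± 0.06 (adjusted p = 1.5e-17), 14.32 ± 0.44 in late against 15.29 ± 0.43 in early arrays (SD). Ltbp4 had -0.37 ± 0.14 (adjusted p = 0.0402), Ltbp1 -0.16 ± 0.01 and Ltbp3 -0.11 ± 0.03. For Ltbp4 the late minus early difference did not pass (-0.26, adjusted p = 0.156).

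Of 13 measured assembly genes 2 rose, 4 fell and 7 did not pass, beside the 14.2% of all probe sets that rose and the 16.2% that fell. The largest slope was that of Adamtsl4, an ADAMTS-like protein that binds fibrillin-1, at -2.28 ± 0.19 (adjusted p = 4.85e-14), with 8.65 ± 1.15 in late and 10.84 ± 0.89 in early arrays (SD). Emilin2 fell at -0.25 ± 0.02, fibronectin (Fn1) at -0.14 ± 0.02 and versican (Vcan) at -0.13 ± 0.02. Adamts10, a protease of the microfibril, rose at 0.39 ± 0.09 (adjusted p = 0.000736), and Mfap3 at 0.05 ± 0.02 (adjusted p = 0.0247). Of 8 elastin-degrading proteases 4 rose: cathepsin K (Ctsk) at 1.16 ± 0.07, Mmp14 at 0.62 ± 0.04, Mmp2 at 0.28 ± 0.03 and cathepsin L (Ctsl) at 0.19 ± 0.02. Ctss fell by 0.006 at a level of 5.56, near the floor.

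**Figure D5:**
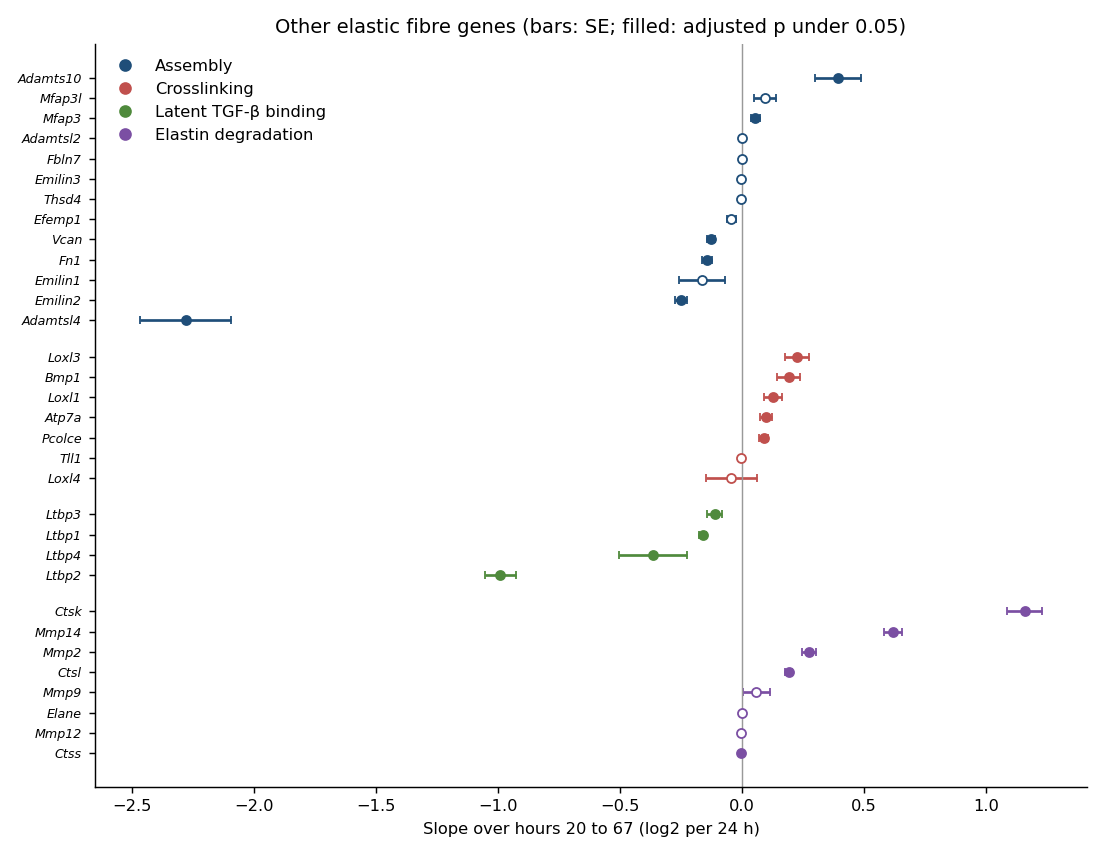
Slope over hours 20 to 67 in log2 per 24 h, with SE, of the measured genes of 4 lists (assembly, crosslinking, latent TGF-β binding, elastin degradation), filled where the adjusted p is under 0.05. Adamtsl4 at -2.28 and Ltbp2 at -0.99 lie lowest, and Ctsk at 1.16 highest.

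Of 4 markers of smooth muscle, the other main producer of elastic fibres, 3 fell, where 16.2% of all probe sets fell. Acta2 fell at -0.13 ± 0.02 and Tagln at -0.31 ± 0.08, Cnn1 at 5.41, near the floor, by 0.006, and Myh11 had -0.008 (adjusted p = 0.249). Of 8 fibroblast markers 4 rose and 2 fell, where 14.2% of all probe sets rose and 16.2% fell. Among these markers were Thy1 at -0.45 ± 0.02 (adjusted p = 2.27e-22), Col3a1 at 0.17 ± 0.02 and Pdgfrb at 0.19 ± 0.04. Of the 4 smooth muscle markers 2 were above the median of all probe sets. The mean level of the list was 10.43 to 10.82 in late and 10.56 to 10.92 in early arrays. Above that median were 1 of 4 macrophage markers (Cd68) and 1 of 2 measured adipocyte markers. The adipocyte marker, Fabp4, rose at 0.58 ± 0.03 (adjusted p = 1.29e-19), while Adipoq stayed at 5.39. The part of these marker changes in those of the members was not tested. In RNA from whole dishes, fewer cells of a kind and less RNA per cell cannot be told apart.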

How the data were processed

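RNA of 48 hourly dishes of NIH3T3 cells was hybridised to Affymetrix mouse genome arrays. The authors' methods name GCRMA for extraction and MAS5 for present calls, and the submitters' processing notes name MAS5. Which of them set the scale of the deposited values is not given in the sources used here. The deposited table holds linear intensities, 1 column per array, and these were taken to log2 with no further normalisation and no pseudocount. Array precision is limited by the number of arrays, 1 per hour.

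The probe table gave 1 symbol for 34945 of 45037 probe sets, several for 932 and none for 9160, and 34741 symbols were updated through Entrez identifiers. The 64 control probe sets were left out. The probe sets of the members were all described, the brightest leading. The other genes named were those of 4 role lists past the trend test and the 1 gene most correlated with each member. Cell type markers and the clock gene Nr1d2 were named as well. The members and lists were chosen with earlier results of these data known.

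Models were fitted in limma 3.58.1 (R 4.3.3) with hour and a 24 h cosine (trend), with late (hours 44 to 67) against early window and the cosine, with separate slopes per window, and with 12 h and 8 h cosines, and Benjamini-Hochberg adjustment was made over 45037 probe sets at 0.05. Fisher's G-test used 23 periods and Storey q-values (spline with 3 degrees of freedom). COSOPT, the other method of the authors, was not run. The tests were checked on simulated data whose noise was independent between arrays, so the check could not show the effect of correlated neighbouring hours. Alternatives covered scaling, β-actin, doubtful hours, dim probe sets, blocks of 6 h (correlation 0.264, estimated on 6000 probe sets) and leaving out each array.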

Additional observations from a re-analysis of the deposited data

Results flagged for a closer look

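The slope of Mfap4 differed between the windows by 1.34 log2 per 24 h (2.71 late, 1.37 early; limma adjusted p = 0.0032), which flagged it as a difference between groups by a test of the difference itself. The early slope takes in the flat hours 20 to 35, whose level may be background. With 6 h windows as a random block this call was lost and 0 members passed. The same test flagged the second, dimmer probe set of Fbln5, at 1.24 (-0.15 late, -1.39 early; adjusted p = 0.0065), whereas the leading probe set of Fbln5 had -0.003 (adjusted p = 0.958).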

How the results depend on the processing

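The trend test called 7 members, and 6 or 7 under every other setting run but leaving out hour 67, where it called 8 (range 7 to 8 when each array was left out). There Mfap2 passed at -0.004 (adjusted p = 0.0403). The window test called 7, and 6 or 7 under the other settings (7 with the hour of the cycle as a block, which pairs arrays 24 h apart, and 7 to 7 with each array left out). The slope change test called 1 member, 2 when centred on array medians, with the β-actin covariate, without arrays of high β-actin difference, with only probe sets above the median, on linear values and with the mean of all probe sets of a symbol, 3 without hours 20 to 25, 0 with 6 h windows as a random block, and 1 to 2 with each array left out. Fbn2 then passed without hour 20, 22, 39, 44, 63, 64 or 67 (adjusted p 0.00926 to 0.0498) and Lox without hour 36 (adjusted p = 0.0173). The 24 h and 12 h cosines called 0 to 0 members with each array left out. The 8 h cosine called 0, 2 with the mean of all probe sets, and 0 to 2 with an array left out; the dim Fbln1 and Mfap2 passed then, without hour 29, 31, 41, 42, 49, 52, 63 or 65, and Mfap2 without hour 62. The G-test called 7, 1 with the linear trend removed, and 5 to 7 under the other settings. Under centring on array medians Mfap2 turned to 0.000806 in slope and 0.0026 late minus early, neither past the test. Lox had an adjusted p of 0.0509 on 6 h means (slope 0.08), and the Eln window difference was lost without hours 20 to 25 (0.26, adjusted p = 0.0583) and with the random block (0.28, adjusted p = 0.311). The cause was not tested. Over single members and settings, 227 values kept direction and call, 6 lost the call and 2 turned.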
